A study of Mus musculus with 6 samples.

Results

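The Runx factors and their Cbf partners were followed through Myc-driven lymphoma development in mouse pre-B cells. The 6 genes were taken by symbol from a list of names and are Runx1, Runx2, Runx3, Cbfb, Cbfa2t2 and Cbfa2t3, which are 6 of the 37991 gene identifiers counted. Polyadenylated RNA was sequenced from sorted bone marrow cells of C57BL/6 mice, with 2 biological replicates of each of 3 stages and 6 libraries in all. Wild type cells came from mice without the transgene at 4 to 6 weeks of age. Premalignant cells came from heterozygous Eμ-Myc mice at 4 to 6 weeks, and malignant cells from heterozygous Eμ-Myc mice with lymphoma at 10 to 20 weeks, so age changes together with the malignant stage. By the paper's methods, wild type and premalignant mice were female, while malignant cells came from females and males. Sex may therefore also differ with the malignant stage. In Eμ-Myc mice the immunoglobulin heavy chain enhancer drives Myc in B-lineage cells. The gate was B220 high, IgM low and IgD low for normal pro-B and pre-B cells, and B220+, IgM- and IgD- for malignant cells, so the malignant cells were sorted by a differently written gate. Lymphomas arise separately in each mouse, and each malignant library is therefore given on its own.

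Runx proteins are the DNA-binding subunits of core binding factor. They recognize the core sequence TGTGGT through the Runt domain, and Cbfb, which does not contact DNA itself, binds the Runt domain and strengthens its hold on DNA. Runx1 and Cbfb are needed for the earliest steps of B-cell development, Runx2 is best known as the regulator of bone formation and Runx3 for its part in T and natural killer (NK) cells. Cbfa2t2 and Cbfa2t3 (also called Mtgr1 and Eto2) share the Cbfa2t name with Runx1t1, the fusion partner of RUNX1 in acute myeloid leukemia. They are co-repressors that bring histone deacetylases to DNA-bound factors such as E-proteins, and are not subunits of core binding factor.

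Levels are given as CPM, a gene's counts scaled to a common library size after TMM adjustment. Differences between stages are log2 fold changes from edgeR's quasi-likelihood test, fitted to all 16683 genes that passed the filter on low counts, which each of the 6 genes did. A gene is said to be called, or to have risen or fallen, where its Benjamini-Hochberg adjusted p was 0.1 or less and its log2 fold change reached 0.5 in size, and every adjusted p below is from that test unless DESeq2 is named. Total counts were 51065861 to 53453055 in the replicate 1 libraries and 30031100 to 34543633 in the replicate 2 libraries, so that 3 counts correspond to 0.0526 to 0.108 CPM. Myc stood at 33.8 and 41.4 CPM in wild type, 1164 and 1155 CPM in premalignant and 1732 and 1578 CPM in malignant libraries, as the labels require. The pre-B markers Cd79a and Pax5 were present in all 6 libraries, with Cd79a at 732 to 1480 CPM. The surrogate light chain genes Igll1 and Vpreb1, which mark the pro-B and early pre-B stages, were at 0.167 and 0.146 CPM in malignant replicate 1, close to the level of 3 counts, and at 7.56 and 4.05 CPM in malignant replicate 2.

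In premalignant cells Runx1 and Cbfa2t3 had fallen below wild type. In malignant cells Runx1, Runx2 and Cbfa2t3 lay below wild type and Runx3 above it. Cbfb and Cbfa2t2 passed the test in none of the 3 comparisons. Of the 6 genes, 2 were called between premalignant and wild type cells, both lower, where 39.3% of all genes tested were called and 20.3% were lower. Between malignant and wild type cells 4 of 6 were called (1 higher and 3 lower), beside 49.2% of all genes, 24.9% higher and 24.3% lower. These shares are so high for all genes that the number of calls among 6 genes sets them apart from other genes in neither comparison. Between malignant and premalignant cells edgeR called 0 of 6, beside 6.18% of all genes, 3.73% higher and 2.45% lower. In the same test 2 of 6 (Runx3 and Cbfa2t3) had an unadjusted p under 0.05, beside 19.86% of all genes. DESeq2 called 1 of 6 (Runx3), beside 2169 of 26485 genes. The comparisons share their libraries, so the calls are not independent of each other.

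**Figure D1:**
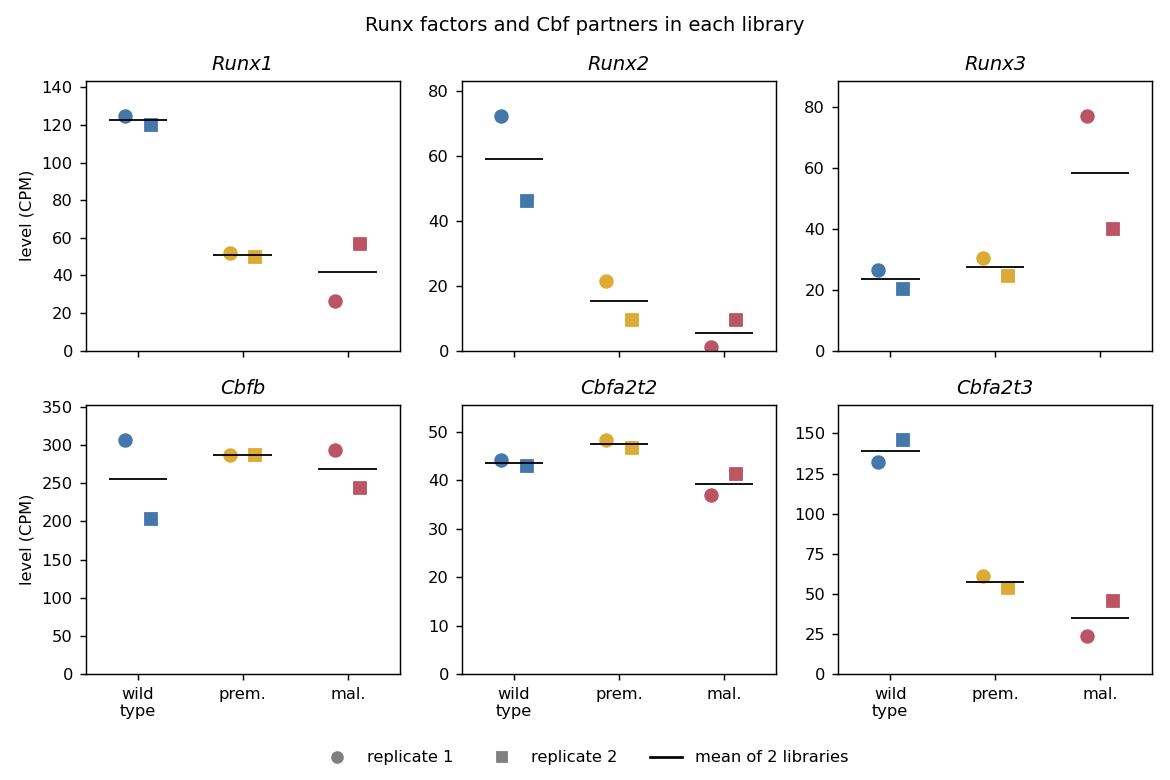
Level of each gene (CPM, linear axes from 0, a different scale in each panel) in the 2 libraries of each stage, with replicate 1 as circles, replicate 2 as squares and the mean as a line; prem. is premalignant and mal. malignant. Runx1, Runx2 and Cbfa2t3 were highest in both wild type libraries, and Runx3 in both malignant libraries. The 2 malignant libraries lay far apart for Runx1, Runx2, Runx3 and Cbfa2t3.

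The 3 Runx genes are paralogs, and reads of 50 bases could in principle be split among them. A stretch of their coding sequence that runs into the start of the Runt domain is shown, with 90 of 120 bases the same in all 3 genes. It was cut around a run of 11 bases that all 3 share, which have no longer run in common, and other stretches were not compared. It is printed 5′ to 3′ on the coding strand from the NCBIM37 (mm9) genome, and capitals mark the bases that differ between the genes.
Runx1: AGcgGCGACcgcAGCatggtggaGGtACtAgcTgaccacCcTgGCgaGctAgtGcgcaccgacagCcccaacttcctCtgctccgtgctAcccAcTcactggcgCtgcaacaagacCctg
Runx2: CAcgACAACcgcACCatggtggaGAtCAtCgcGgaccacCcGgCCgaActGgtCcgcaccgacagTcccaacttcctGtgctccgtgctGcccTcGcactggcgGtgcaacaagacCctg
Runx3: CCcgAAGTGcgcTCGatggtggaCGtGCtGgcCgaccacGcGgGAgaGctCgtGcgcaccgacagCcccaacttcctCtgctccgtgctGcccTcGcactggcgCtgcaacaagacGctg
These stretches lie in coding exons at chr16:92695744-92695863 on the minus strand (Runx1, exon 3), chr17:44872197-44872316 on the minus strand (Runx2, exon 3) and chr4:134708837-134708956 on the plus strand (Runx3, exon 2). Runx1 was identical to each of the other two at 82.5% of these bases, and Runx2 to Runx3 at 80.8%. The longest unbroken run shared by any 2 of them over their whole coding sequences was 38 bases, between Runx1 and Runx3. No 50-base word of the transcripts of any of the 6 genes occurred in another of the 6, so an error-free read of full length could be told apart among them. Of all 50-base words of a gene, 0.477% in Runx2, 1.36% in Runx3 and 0.326% in Cbfa2t2 also occurred in protein-coding transcripts of other genes outside the 6. The share was 0 for Runx1, Cbfb and Cbfa2t3. Noncoding transcripts were not searched. The 2009 of 8799 Runx2 words shared with a second identifier of the same symbol are not in its share.

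Runx1 (ENSMUSG00000022952, chr16:92601712-92826311, minus strand) was at 125 and 120 CPM in wild type, 52.1 and 49.9 CPM in premalignant, and 26.4 and 56.8 CPM in malignant libraries. Both wild type libraries were above all 4 Eμ-Myc libraries, and the malignant libraries fell on either side of the premalignant pair. From wild type to premalignant cells the log2 fold change of Runx1 was -1.26 (SE 0.34, adjusted p 0.0339, n = 2 each in edgeR), and from wild type to malignant cells it was -1.56 (SE 0.34, adjusted p 0.0127). Between malignant and premalignant cells the log2 fold change was -0.30 (95% interval -1.10 to 0.51, adjusted p 0.692), with -0.98 between the replicate 1 libraries and 0.19 between the replicate 2 libraries. The replicates with the same number share their sequencing depth and nothing else that the labels name. The premalignant call was lost when any of the 4 libraries compared was left out (adjusted p 0.128 to 0.181), with log2 fold changes of -1.29 to -1.22, whereas the malignant call against wild type held in each such fit. In bulk RNA, fewer cells of a type and less RNA per cell cannot be told apart. An antisense lincRNA, Gm16801, shares 106 bp of exon with Runx1 and had 7 to 40 counts per library.

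Runx2 (ENSMUSG00000039153, chr17:44632936-44951746, minus strand) was at 72.3 and 46.0 CPM in wild type, 21.4 and 9.34 CPM in premalignant, and 1.21 and 9.32 CPM in malignant libraries, from 4124, 1626, 1124, 310, 58 and 260 counts. Malignant replicate 1 stood apart from all other libraries, and malignant replicate 2 was level with premalignant replicate 2. Against wild type, Runx2 in malignant cells had a log2 fold change of -3.52 (SE 0.93, adjusted p 0.0248), which is an 11.5-fold lower level. This fold change was -2.66 without malignant replicate 1 and -5.58 without malignant replicate 2, and the call was lost without wild type replicate 1 (adjusted p 0.110). Between premalignant and wild type cells the groups did not overlap, but the log2 fold change of -1.94 (95% interval -4.03 to 0.15) was not called (adjusted p 0.135). It was called when the malignant libraries were left out of the fit (adjusted p 0.0111), when either malignant library alone was left out (0.00852 and 0.00984), and with no filter on low counts (4.93e-12). Between malignant and premalignant cells the log2 fold change was -1.58 (95% interval -3.70 to 0.54, adjusted p 0.385), with -4.14 between the replicate 1 libraries and -0.0029 between the replicate 2 libraries. A second identifier with the symbol Runx2 (ENSMUSG00000092206) lies within the gene, shares 2532 bp of exon with it and had 0 counts in all 6 libraries. Together with the antisense transcript Gm10497 it overlaps 34.5% of the exon length of Runx2, where reads may have been left out as ambiguous.

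Runx3 (ENSMUSG00000070691, chr4:134676567-134733905, plus strand) was at 26.4 and 20.2 CPM in wild type, 30.2 and 24.3 CPM in premalignant, and 76.9 and 39.8 CPM in malignant libraries. Both malignant libraries were above all 4 others, with replicate 1 the higher. Against wild type, Runx3 in malignant cells had a log2 fold change of 1.32 (SE 0.33, adjusted p 0.0214), or 2.5-fold, and was the only gene of the 6 to be called higher in any comparison. The call was lost without wild type replicate 2 (adjusted p 0.133), and the log2 fold change was 0.78 without malignant replicate 1. Between premalignant and wild type cells it was 0.23 (95% interval -0.58 to 1.03, adjusted p 0.638). Between malignant and premalignant cells it was 1.10 (95% interval 0.29 to 1.90), with 1.35 and 0.71 within replicates 1 and 2, and this was not called by edgeR with stage alone in the model (adjusted p 0.151, against 0.0266 by DESeq2).

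**Figure D2:**
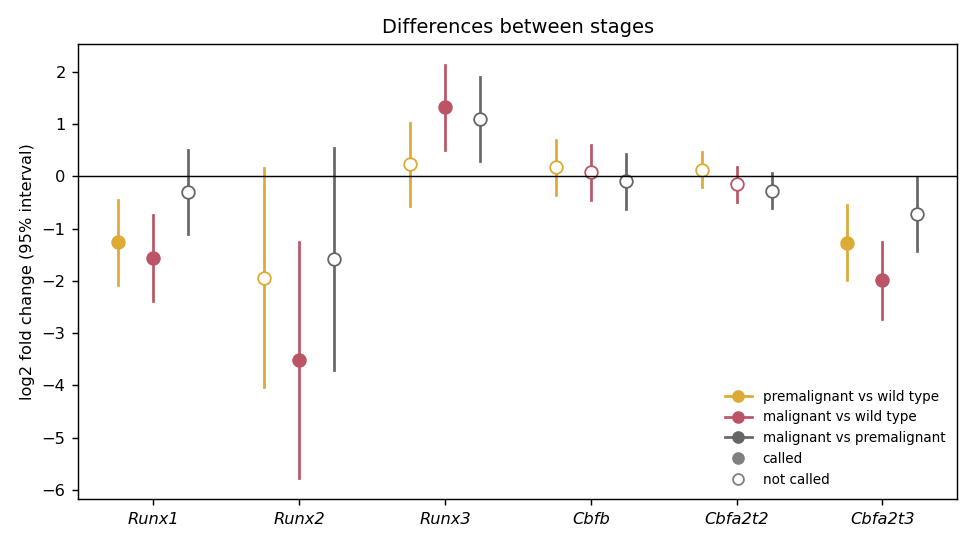
Log2 fold change of each gene in the 3 comparisons with its 95% interval from edgeR; filled points were called and open points were not. Runx1 and Cbfa2t3 lay below 0 in both comparisons with wild type, Runx3 was called above 0 in malignant vs wild type, and the intervals of Runx2 were the widest.

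In malignant replicate 2 the levels of Runx1, Runx2, Runx3 and Cbfa2t3 were all closer to those of the premalignant libraries than the levels in malignant replicate 1 were. Without malignant replicate 2, edgeR called 4 of the 6 genes between malignant and premalignant cells, with log2 fold changes of -0.98 for Runx1, -3.71 for Runx2, 1.46 for Runx3 and -1.29 for Cbfa2t3, and adjusted p-values of 0.00675, 0.0113, 0.00654 and 0.00392. That fit called 3805 of all 18065 genes tested, against 1031 of 16683 with all libraries. Without malignant replicate 1 it called 0 of the 6 genes and 2668 of all 17063. These fits leave 1 malignant library, which is assumed to vary like the other stages.

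The share of each Runx gene in the summed Runx transcripts was computed per length, as RPKM, which is CPM divided by the exon length in kilobases. Runx1 made up 54.3% and 62.5% of the sum in wild type, 44.1% and 52.0% in premalignant, and 17.9% and 44.7% in malignant libraries. Runx3 made up 17.9% and 16.4%, then 39.9% and 39.5%, then 81.3% and 48.8%. Runx1 was thus the largest part in all 4 wild type and premalignant libraries, and Runx3 in both malignant libraries, by a wide margin in replicate 1 and by a narrow one in replicate 2. This order depended on the length used where the margin was narrow. With the longest transcript, Runx3 passed Runx1 in premalignant replicate 1 (42.3% and 39.8%), and on the CPM scale, with no length, Runx1 was above Runx3 in malignant replicate 2 (53.7% and 37.5%). Runx2 was 27.8% and 21.1% of the sum in wild type libraries, 16.0% and 8.58% in premalignant ones, and 0.727% and 6.48% in malignant ones. In premalignant libraries the Runx3 share was higher than in wild type while Runx1 was called lower and neither Runx2 nor Runx3 was called. The summed RPKM was 29.5 and 24.7 in wild type, 15.2 and 12.3 in premalignant, and 18.9 and 16.3 in malignant libraries, so neither Eμ-Myc stage overlapped with wild type.

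**Figure D3:**
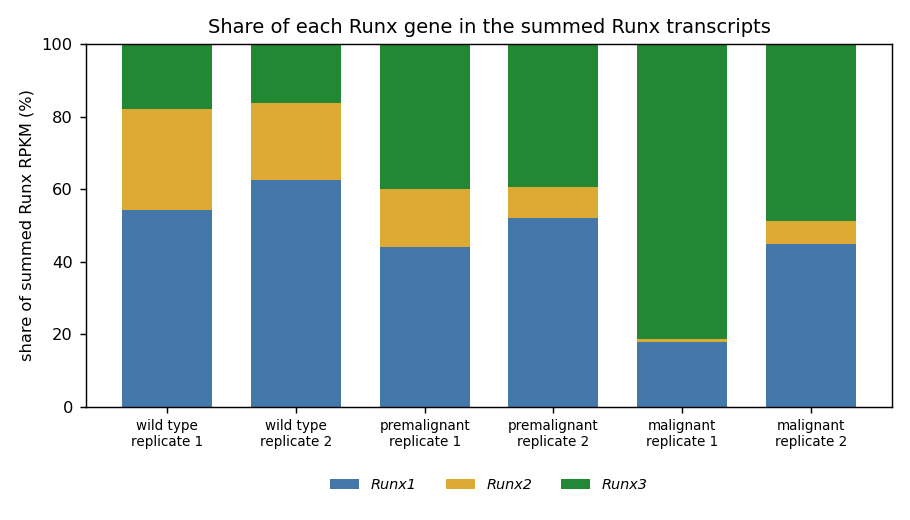
Share of Runx1, Runx2 and Runx3 in the summed RPKM of the 3 genes (%), 1 bar per library. The Runx3 share was 16.4% to 17.9% in wild type, 39.5% to 39.9% in premalignant and 48.8% to 81.3% in malignant libraries.

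The 250 bases before transcription starts of the Runx genes are shown because the Runx core sequence TGTGGT, or its reverse complement ACCACA, occurs in some of them. All 6 genes matched the RefSeq promoter table (GRCm38.p6, a later build than the counts), with 9 windows in all. The sequences are 5′ to 3′ on the strand of the gene, and capitals mark the Runx core in either orientation and the E-box CACGTG, the sequence that Myc binds with Max.
Runx1, chr16:92826075-92826324, minus strand: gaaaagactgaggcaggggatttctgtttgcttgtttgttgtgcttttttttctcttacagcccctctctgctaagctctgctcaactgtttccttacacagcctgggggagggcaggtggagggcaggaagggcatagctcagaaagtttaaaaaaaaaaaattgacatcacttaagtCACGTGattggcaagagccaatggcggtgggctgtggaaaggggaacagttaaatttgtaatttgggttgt
Runx2, chr17:44814628-44814877, minus strand: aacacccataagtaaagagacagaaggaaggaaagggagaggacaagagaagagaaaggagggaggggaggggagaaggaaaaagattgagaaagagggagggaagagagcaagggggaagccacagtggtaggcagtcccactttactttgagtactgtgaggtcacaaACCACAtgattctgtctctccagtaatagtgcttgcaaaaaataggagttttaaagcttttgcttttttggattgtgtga
Runx3, chr4:135120395-135120644, plus strand: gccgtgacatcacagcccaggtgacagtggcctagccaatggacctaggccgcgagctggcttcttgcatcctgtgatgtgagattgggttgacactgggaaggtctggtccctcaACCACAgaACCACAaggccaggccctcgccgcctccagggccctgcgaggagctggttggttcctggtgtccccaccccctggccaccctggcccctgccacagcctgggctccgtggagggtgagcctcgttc
The window shown for Runx3 held 2 core sequences, 2 bases apart, that of Runx2 held 1, and the other 7 windows held 0. Of all 32851 such windows in the table, 14.05% held at least 1. The E-box CACGTG was in 1 of the 9 windows, the one shown for Runx1, and in 6.02% of all windows. Runx1 and Runx3 each have a second window, not printed, that held neither the Runx core nor CACGTG. The matches are letters in a window and say nothing about binding in these cells.

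Cbfb (ENSMUSG00000031885, chr8:107694574-107741886, plus strand), the partner that all 3 Runx proteins bind, was at 306 and 203 CPM in wild type, 286 and 287 CPM in premalignant, and 293 and 243 CPM in malignant libraries. The groups overlapped in all 3 comparisons, and the spread between the wild type libraries was wider than any difference between stage means. The log2 fold change was 0.17 (95% interval -0.36 to 0.70, adjusted p 0.589) between premalignant and wild type, 0.07 (-0.45 to 0.60, adjusted p 0.818) between malignant and wild type, and -0.10 (-0.62 to 0.43, adjusted p 0.861) between malignant and premalignant cells. Per length, Cbfb was the most abundant of the 6 genes in each library. Its RPKM was 3.57 and 2.83 times the summed Runx RPKM in wild type, 6.49 and 8.0 times in premalignant, and 5.32 and 5.13 times in malignant libraries. This ratio was higher in all 4 Eμ-Myc libraries than in both wild type libraries.

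Cbfa2t2 (ENSMUSG00000038533, chr2:154262217-154365092, plus strand) was the steadiest of the 6 genes, at 44.1 and 42.8 CPM in wild type, 48.2 and 46.7 CPM in premalignant, and 37.0 and 41.3 CPM in malignant libraries. The stages did not overlap, but the differences were small and none was called. The log2 fold change was 0.13 (95% interval -0.21 to 0.46, adjusted p 0.518) between premalignant and wild type, -0.15 (-0.49 to 0.18, adjusted p 0.422) between malignant and wild type, and -0.28 (-0.61 to 0.06, adjusted p 0.33) between malignant and premalignant cells.

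Cbfa2t3 (ENSMUSG00000006362, chr8:125152639-125223009, minus strand), the co-repressor that is highly expressed in blood stem and progenitor cells, was at 132 and 146 CPM in wild type, 61.2 and 53.9 CPM in premalignant, and 24.2 and 45.8 CPM in malignant libraries. The 3 stages did not overlap and were ordered from wild type down to malignant. Cbfa2t3 fell by 1.27 on the log2 scale from wild type to premalignant cells (SE 0.29, adjusted p 0.0228) and by 1.99 from wild type to malignant cells (SE 0.30, adjusted p 0.00391), which is 3.98-fold. The second call held with each library left out. The first was lost without wild type replicate 2 (adjusted p 0.123) and without premalignant replicate 1 or 2 (adjusted p 0.116 and 0.156). Between malignant and premalignant cells the log2 fold change was -0.72 (95% interval -1.43 to -0.01) and was not called (adjusted p 0.245), with -1.34 and -0.23 within replicates 1 and 2. As a share of the 2 Cbfa2t genes per length, Cbfa2t3 was 84.4% and 86.0% in wild type, 69.7% and 67.6% in premalignant, and 54.2% and 66.8% in malignant libraries. The antisense transcript Gm10612 shares 295 bp of exon with Cbfa2t3 and had 10 to 63 counts per library.

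In wild type cells the order per length was Cbfb (87.6 ± 25.0 RPKM, SD, n = 2), Cbfa2t3 (29.1 ± 2.05), Runx1 (15.7 ± 0.403), Runx2 (6.69 ± 2.10), Cbfa2t2 (5.02 ± 0.09995) and Runx3 (4.66 ± 0.872), of which the last 3 lay within their spread. In premalignant cells it was Cbfb (98.4 ± 0.174), Cbfa2t3 (12.1 ± 1.09), Runx1 (6.54 ± 0.201), Cbfa2t2 (5.49 ± 0.129), Runx3 (5.45 ± 0.838) and Runx2 (1.74 ± 0.967), with Cbfa2t2 and Runx3 within their spread. In malignant cells Cbfb (92.1 ± 12.1) was followed by Runx3 (11.7 ± 5.25), Cbfa2t3 (7.32 ± 3.20), Runx1 (5.34 ± 2.75), Cbfa2t2 (4.53 ± 0.346) and Runx2 (0.596 ± 0.649). Runx3, Cbfa2t3, Runx1 and Cbfa2t2 did not differ from their neighbours in that order beyond the spread between the malignant libraries. With coding length in place of exon length, Runx1 came before Cbfa2t3 in all 3 stages, and Cbfa2t2 before Cbfa2t3 in malignant cells. With the longest transcript, Cbfa2t2 came before Runx1 in premalignant and malignant cells.

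The genes closest to each of the 6 over the 6 libraries were found among 8873 genes with a mean of at least 10 CPM, by the root mean square difference of centred log2 CPM. For Runx1 these were Tcf4 (0.12), an E-protein that Cbfa2t3 binds, Mef2a (0.13) and Plekho1 (0.14). For Runx2 they were Fyb (0.18), Lrp8 (0.21) and Cd7 (0.25), and for Runx3 Degs1 (0.17), Dhrs4 (0.18) and Psme1 (0.20). For Cbfa2t3 they were Rhbdf2 (0.10), Smtn (0.13) and Litaf (0.16). For Cbfb they were 1110059G10Rik (0.05), Usp9x (0.06) and Zfp58 (0.06), and for Cbfa2t2 Trmt2b (0.04), Zfp646 (0.05) and Ciao1 (0.05), in both cases genes that moved little, which lie close to any steady gene. Among the 6 genes the closest pair was Runx1 and Cbfa2t3, with a difference of 0.21. These 6 points share library depth and stage and are a description.

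Markers of other cell types moved with the stages. The 7 genes that mark plasmacytoid dendritic cells, which carry B220 and express Runx2, summed to 914 and 690 CPM in wild type, 385 and 254 CPM in premalignant, and 149 and 266 CPM in malignant libraries. Irf8 was the largest part of each sum, at 478 and 397, 266 and 178, and 98.9 and 164 CPM. The defining gene Siglech was at 204 and 138, 39.0 and 19.6, and 1.67 and 21.9 CPM, the same order of libraries as Runx2 except that malignant replicate 2 was above premalignant replicate 2. In the plot of Runx2 with these genes, 6 of the 7 were lowest in malignant replicate 1, and Cox6a2 was lowest in premalignant replicate 2. The pro-B markers moved in the same direction, with sums of 317 and 262, 35.9 and 18.02, and 9.27 and 14.8 CPM over 4 genes. The part of these cells in the levels of Runx2 was not tested. The osteoblast gene Sp7 was at 0 in 5 of the 6 libraries, and the 7 stroma and osteoblast markers summed to no more than 7.59 CPM.

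**Figure D4:**
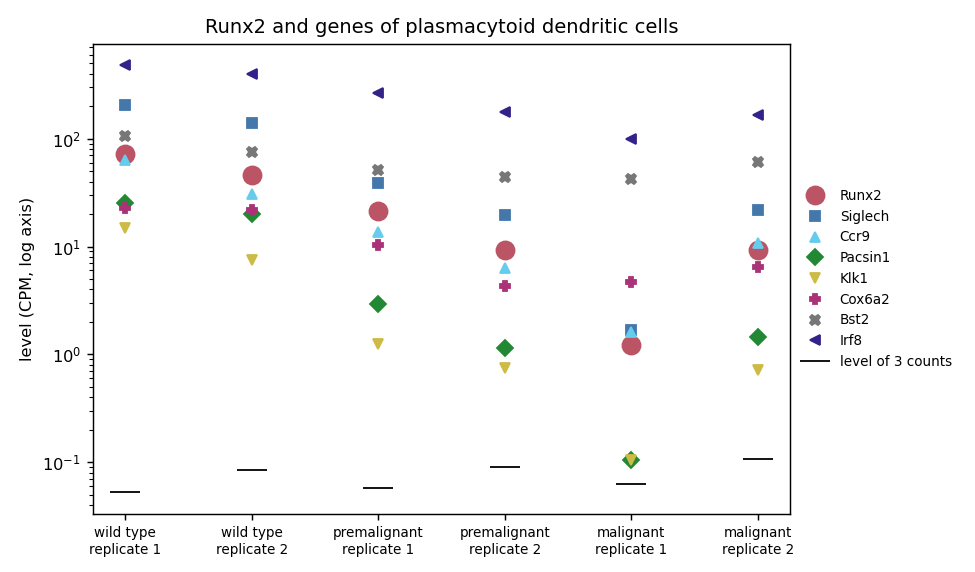
Level (CPM, log axis) of Runx2 and of the 7 marker genes of plasmacytoid dendritic cells in each library; black dashes give the level of 3 counts. Runx2 and Siglech fell to 1.21 and 1.67 CPM in malignant replicate 1 and stood at 9.32 and 21.9 CPM in malignant replicate 2.

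The NK markers, 5 genes of a cell type that uses Runx3, summed to 210 and 65.2 CPM in wild type, 10.5 and 3.22 CPM in premalignant, and 3.68 and 4.80 CPM in malignant libraries. Cd3e, a component of the T cell receptor complex, was at no more than 0.108 CPM in the malignant libraries. The 6 T cell markers summed to 86.7 and 104, 31.4 and 44.4, and 201 and 132 CPM. Cd2 made up most of the sum in each library, so the sums followed 1 gene. It was at 75.3 and 97.1 CPM in wild type, 30.4 and 43.4 CPM in premalignant, and 200 and 130 CPM in malignant libraries. Cd2 was called higher there than in wild type (0.94) and in premalignant cells (2.16). Of the 6 T cell markers, 1 (Cd2) was called higher and 4 (Cd3d, Cd3e, Cd3g and Trac) lower in malignant cells against wild type. Among all genes 24.9% were called higher and 24.3% lower. The NK marker Prf1 was at 1.03 and 0.693 CPM in premalignant and 2.80 and 2.55 CPM in malignant libraries, a difference that was not called. Ncr1, Klrb1c, Klrk1 and Gzma had negative log2 fold changes between these stages, also not called, and the median of the 5 NK markers was -1.62. The part of T and NK cells in the level of Runx3 was not tested. The 8 myeloid markers summed to 985 and 2201 CPM in the wild type libraries, 299 and 323 CPM in the premalignant and 73.7 and 141 CPM in the malignant ones, and the 5 erythroid markers to 59.5 and 167, 10.3 and 18.5, and 6.57 and 7.21 CPM. Runx1 was 125 and 120 CPM and Cbfa2t3 132 and 146 CPM in the wild type libraries. The part of myeloid and erythroid cells in the fall of Runx1 and Cbfa2t3 was not tested. Of the remaining markers, the 11 pre-B genes summed to 6759 and 7616, 3344 and 3301, and 2842 and 2675 CPM, and the 6 mature B genes to 611 and 827, 1425 and 1544, and 1636 and 3301 CPM. The largest part of the mature B sum was Cd74, at 286 and 338 CPM in wild type and 1054 and 2346 CPM in malignant libraries. Of the 6 mature B genes, 3 were called higher and 3 lower (Cr2, Fcer2a and Ms4a1) in malignant cells against wild type.

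Of 19 genes for co-activators and co-repressors of Runx factors, 4 rose and 3 fell from wild type to premalignant cells, and 4 rose and 5 fell from wild type to malignant cells. These counts are near the 39.3% and 49.2% called among all genes and do not set the list apart. The median log2 fold changes were -0.11 and -0.10, beside -0.08 and -0.02 over all genes. Prmt1, an arginine methyltransferase that modifies Runx1, rose in both comparisons, by a log2 fold change of 1.43 (adjusted p 0.00263) and 1.63 (adjusted p 0.000946). So did the Groucho-type co-repressor Tle1 (1.13 and 1.63), and, named after its values were seen, the histone methyltransferase Suv39h1 (0.95 and 0.87). The related co-repressors Tle2 (-4.07 and -3.05) and Tle4 (-0.70 and -0.96) fell. The acetyltransferase Crebbp fell in both (-0.57 and -0.74), and Kmt2a (-0.79) and the remodeller Smarca4 (-1.55, adjusted p 0.00144) fell in malignant cells, the latter also against premalignant cells (-1.07, adjusted p 0.0364), where it was the only call of this list. Ep300, Kat6a, Kat6b, Tle3, Aes, Sin3a, Ncor1, Hdac1, Hdac2 and Hdac3 were not called in any comparison.

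Of 11 partners of the Cbfa2t co-repressors, 9 had enough counts to be tested, and Runx1t1, the third member of the Cbfa2t group, was at no more than 0.198 CPM. None of the 9 was called higher in any comparison, 4 fell in premalignant and 6 in malignant cells against wild type, and 0 were called between malignant and premalignant cells. Among all genes, 20.3% were called lower in premalignant and 24.3% in malignant cells against wild type, and 6.18% were called between malignant and premalignant cells. The median log2 fold change of the 9 was -1.03 and -1.31 against wild type, beside -0.08 and -0.02 over all genes. The E-protein genes Tcf4 (-1.39 and -1.61) and Tcf12 (-1.03 and -1.31), the latter named after its values were seen, fell in both stages. The repressor Bcl6 fell from 26.0 and 22.3 CPM in wild type to 3.39 and 2.53 CPM in premalignant and 0.481 and 3.51 CPM in malignant libraries (log2 fold changes of -3.02 and -3.63). Gfi1b fell in malignant cells (-2.70, adjusted p 0.0911), with 0.105 CPM in replicate 1 and 2.01 CPM in replicate 2.

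Of 9 factors that act with Runx1 in blood progenitors, 0 rose, 4 fell in premalignant and 5 in malignant cells against wild type, with medians of -1.68 and -0.64. Over all genes, 20.3% and 24.3% were called lower in these stages against wild type, with medians of -0.08 and -0.02. Between malignant and premalignant cells 0 of the 9 were called, beside 6.18% of all genes. The Ets factor Erg fell from 55.2 and 61.0 CPM in wild type to 3.70 and 2.62 CPM in premalignant and 0.0418 and 1.94 CPM in malignant libraries, and Tal1 fell by 2.72 and 4.19 on the log2 scale in the 2 comparisons. Lmo2, named after its values were seen, was at 20.8 and 23.1, 4.17 and 3.80, and 22.0 and 6.02 CPM. It was called lower in premalignant cells only, and the 2 malignant libraries fell at the wild type and near the premalignant level. Spi1, Ets1 and Lyl1 were not called in any comparison.

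Of 17 early B-cell genes linked to Runx1 and Cbfb, 13 fell in premalignant and 16 in malignant cells against wild type and 0 rose, with medians of -1.06 and -1.34. Over all genes, 20.3% and 24.3% were called lower in these stages against wild type, with medians of -0.08 and -0.02. The surrogate light chain genes Vpreb1 (-4.06 and -5.97) and Igll1 (-3.78 and -5.73) fell the furthest. Il7r, the receptor for the cytokine that pro-B and pre-B cells depend on, was the only one called between malignant and premalignant cells (-1.27, adjusted p 0.0608). This list overlaps with the pre-B markers, so its fall and the fall of their sum are not separate observations.

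Of 16 Runx targets of other blood lineages, 14 were tested, 9 fell in premalignant and 11 in malignant cells against wild type and 0 rose, with medians of -2.12 and -2.28. Over all genes, 20.3% and 24.3% were called lower in these stages against wild type, with medians of -0.08 and -0.02. Tbx21 (-4.21 and -6.40) and Gzmb (-4.31 and -6.03), genes of cytotoxic and NK cells, fell the furthest. This list shares Prf1 with the NK markers, and Mpo and Csf1r with the myeloid markers, so their falls are not separate observations. In the malignant libraries Tbx21 was at 0.0628 and 0.108 CPM and Bcl11b at 0.0837 and 0.143 CPM, near the level of 3 counts. Zbtb7b, which encodes a factor of helper T cells and opposes Runx3 in T cells, was the only one called between malignant and premalignant cells and was higher in malignant cells (2.79, adjusted p 0.0584), at 13.1 and 31.5 against 2.23 and 4.25 CPM. Of 8 bone targets of Runx2, 4 were tested. Alpl, alkaline phosphatase, rose in both stages (2.57 and 2.28, adjusted p 0.00301 and 0.00217) while Spp1 (-2.61 and -4.86) and Mmp13 (-3.64 and -5.10) fell, and 0 were called between malignant and premalignant cells. The median of the 4 tested was -3.06 and -3.63 against wild type, beside -0.08 and -0.02 over all genes. Mmp13 was at 1.89 and 2.32 CPM in wild type and at no more than 0.229 CPM in the Eμ-Myc libraries. It passed the filter on low counts through wild type alone, which fixed the direction of its change. Col1a1, not called, had an SE of 1.95 and 1.83. The median is therefore a description only.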

How the data were processed

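The authors prepared TruSeq libraries, sequenced 50-bp single-end reads, aligned them with TopHat and used HTSeq to count reads on Ensembl genes, and the deposited values are raw counts without normalization. Per the labels' processing notes, CASAVA 1.8.2, Bowtie, HTSeq, DESeq and the mm9 build were used. HTSeq options and strand handling are not given in the sources used here. The kit does not mark strand, so antisense partners cannot be told apart. Deposited tables of the authors' own DEseq comparisons were not used.

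Symbols, coordinates and exon lengths come from GENCODE vM1 on NCBIM37 (mm9), which named 37205 of 37991 identifiers. Counts were tested with edgeR 4.0.16 (R 4.3.3), quasi-likelihood, TMM, the default filter and all 6 libraries in 1 fit, and standard errors were derived from the fold change and its F statistic. With 2 libraries against 2, a two-sided exact permutation test cannot go below 0.33, so no single value was tested that way. RPKM used merged exon length. Alternatives were DESeq2 1.42.0, other normalizations and filters, other thresholds, the replicate number as a block, only the stages compared, each library left out, and other lengths. Fits were tested on simulated counts.

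The named genes were the 6 genes, for each list up to 2 called rises and 2 called falls per comparison with the largest change, where the stage with the higher mean reached 1 CPM, the 3 closest genes of each of the 6, genes overlapping them, and Myc. The members and lists were chosen with earlier results of these data known. Ighd of the mature B markers had no match. Chi-square tests found that replicates of each stage differed beyond counting noise. Protein sequences were not used here. Some genes of the lists are counted in the lists but not reported here by name.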

Additional observations from a re-analysis of the deposited data

How the results depend on the processing

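With 2 libraries per stage, intervals are wide, and leaving out a library leaves a stage with 1. In malignant vs wild type, 4 of the 6 genes were called in the main test and a count within 1.5 times of this was called under each alternative. In premalignant vs wild type the count of 2 ranged from 0 to 3 with 1 library left out, while calls over all genes ranged from 2094 to 8455. In malignant vs premalignant the count of 0 became 1 with DESeq2 (Runx3), 3 with no filter on low counts (Runx2, Runx3 and Cbfa2t3) and 1 when the replicate number was added as a block (Runx3, edgeR's adjusted p 0.079), and ranged from 0 to 4 with 1 library left out, while calls over all genes ranged from 0 to 3805. The block changed no other call among the 6 genes. Over all genes, between malignant and premalignant cells, DESeq2 called 2169 of 26485. The fit with no filter called 2810 of 26485, and the block 940 of 16683. Correlations of same-numbered libraries' deviations were 0.51 for wild type and premalignant, 0.19 for wild type and malignant and 0.26 for premalignant and malignant, and the labels name nothing shared by a number. The causes were not tested. TMM takes most genes as unchanged. With total counts alone the median of all genes moved by -0.21, -0.29 and -0.09 in the 3 comparisons, and the share of calls that were higher went from 48.3%, 50.6% and 60.4% to 33.6%, 35.5% and 50.6%. With upper-quartile normalization it was 42.5%, 42.1% and 49.7%. With total counts the uncalled log2 fold changes of Cbfb, -0.04 for premalignant and -0.22 for malignant cells, and of Cbfa2t2, -0.08 for premalignant cells, each against wild type, took the opposite sign. The mean share of Runx1 among Runx transcripts moved from 58.4% to 52.1% in wild type when exon parts shared with other genes were left out, an alternative chosen after seeing the data, and from 48.0% to 54.98% in premalignant cells when CPM was used without length.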
